A study of Mus musculus with 29 samples.

Results

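The 32 genes described here make cholesterol or control its level, and they were chosen by gene symbol. They comprise 19 enzymes of synthesis, 5 genes of sterol sensing and 8 genes of sterol transport, storage and the liver X receptor (LXR) system. Each symbol matched a single gene among the 54532 genes listed for the cell types and the 55421 listed for the guide experiment, and all 32 passed the minimum level for testing in both, Idi1 among the cell types only through its level in culture. Expression was measured in CD4 T cells of C57BL/6 mice by QuantSeq, a method that reads 1 tag from the 3′ end of each captured mRNA. The cell-type experiment asked which genes of lipid synthesis regulatory T (Treg) cells raise, and the guide experiment how Smad2 and Smad3, the signal carriers of the TGF-beta receptor, bear on another lipid gene, Acsl6. Treg libraries came from naive splenic cells grown for 5 days with IL-2 (15 ng/ml) and human TGF-beta (10 ng/ml), Th0 libraries from cells grown for the same 5 days with IL-2 (15 ng/ml) alone, and naive libraries from uncultured splenic cells, with 3 libraries of each. The guide experiment used the Treg medium throughout and had 2 libraries each labelled sgSmad2/3, sgSmad3, sgSmad2 and, with no guide in the label, Treg, the last called control below, as the file headers do. The labels do not say how the guides or the nuclease were delivered or whether the control cells received any guide. Nor do they say that replicates are separate cultures or mice, so a p below compares groups with a spread that could be technical.

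Cholesterol is built from acetyl-CoA through mevalonate and the isoprenoid diphosphates, then squalene and lanosterol, and the isoprenoids are also used to anchor proteins in membranes. When membrane sterol falls, SCAP carries the SREBP transcription factors from the endoplasmic reticulum to the Golgi, where they are cleaved and then switch on the enzymes. INSIG proteins hold SCAP back when sterol is plentiful, while oxysterols activate LXR, which turns on the genes for sterol export. Lymphocytes that leave quiescence are known to draw on this pathway to build new membrane.

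Promoter sequence was looked at first because the enzymes moved together in the results that follow. RefSeq promoter entries on GRCm38.p6, each running from 250 bases before to 50 bases after an annotated start, were found for 26 of the 32 members, 5 of which had more than 1 entry. Fdps, Fdft1, Sqle, Stard4, Abcg1 and Npc1 had none. The words searched on both strands were an SRE-like word (TCACNCCAC), the NF-Y word (CCAAT), an E-box (CACGTG) and an Sp1 word (GGGCGG), and no words of different kinds shared bases in any member's entry. The NF-Y word, bound by a factor that works beside SREBP, stood in at least 1 entry of 22 of the 26 members (84.6%), against 41.1% of the 27025 genes in the table. Counted by entry, it stood in 67.6% of the 34 member entries and in 37.4% of all 32851. An Sp1 word was present in 23 members (88.5%, against 38.2% of all genes), an E-box in 6 (23.1%, against 8.09%) and the SRE-like word in 1, Hmgcs1 (3.85%, against 1.44%). The shares of all genes were not limited to genes expressed in these cells or to promoters of like base content. An excess of a word is therefore not shown to be particular to the members. The 250 bases before the start are printed for Hmgcs1, Cyp51, Insig1 and Mylip. Hmgcs1 holds that SRE-like word, and Cyp51 is an enzyme that rose by a similar amount without an exact match to it. A site spelled otherwise would not be found, so the search does not show that Cyp51 lacks an SREBP site. Insig1 is the sensing gene discussed with Treg and Th0 cells, and Mylip fell in culture and holds NF-Y words. Capitals mark the SRE-like word and the NF-Y word in either orientation, read along the gene's own strand.
Hmgcs1 (chr13:119690101-119690350, forward strand): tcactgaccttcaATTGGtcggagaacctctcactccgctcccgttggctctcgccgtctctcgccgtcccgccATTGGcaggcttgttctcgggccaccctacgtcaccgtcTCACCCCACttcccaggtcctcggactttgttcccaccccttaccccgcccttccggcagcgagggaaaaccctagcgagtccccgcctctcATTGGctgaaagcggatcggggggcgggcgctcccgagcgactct
Cyp51 (chr5:4104698-4104947, reverse strand): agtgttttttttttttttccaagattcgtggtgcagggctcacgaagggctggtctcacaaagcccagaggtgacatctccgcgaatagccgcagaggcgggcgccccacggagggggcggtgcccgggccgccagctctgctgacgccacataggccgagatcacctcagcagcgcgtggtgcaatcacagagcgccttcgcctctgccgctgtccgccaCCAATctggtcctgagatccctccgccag
Insig1 (chr5:28071162-28071411, forward strand): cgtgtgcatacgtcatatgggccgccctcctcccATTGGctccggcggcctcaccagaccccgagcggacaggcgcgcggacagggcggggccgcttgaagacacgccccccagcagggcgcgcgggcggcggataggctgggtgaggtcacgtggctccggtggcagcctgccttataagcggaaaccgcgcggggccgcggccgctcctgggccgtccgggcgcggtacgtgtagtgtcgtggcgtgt
Mylip (chr13:45389492-45389741, forward strand): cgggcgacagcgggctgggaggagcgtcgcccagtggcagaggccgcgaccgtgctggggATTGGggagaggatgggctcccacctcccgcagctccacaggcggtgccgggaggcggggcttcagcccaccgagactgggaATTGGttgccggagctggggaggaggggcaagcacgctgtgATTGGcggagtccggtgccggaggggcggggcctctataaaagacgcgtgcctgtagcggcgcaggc
Counted from the start, the SRE-like word of Hmgcs1 begins at -137 and its NF-Y words in the printed stretch at -237, -176 and -45. The NF-Y word begins at -29 in Cyp51 and at -216 in Insig1, and the 3 of Mylip begin at -190, -108 and -67. Ggps1, which also fell in culture, and Npc2, which fell in Treg, hold NF-Y words too. The members with an entry but no NF-Y word were Abca1 and Nr1h2, which fell, Acat2, which rose, and Scap, which passed in neither culture. Such matches describe letters and do not show that a factor binds.

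The cell-type libraries held 797612 to 1551478 counted reads and the guide libraries 1294583 to 1602297, so that 1 read was worth 0.645 to 1.25 CPM (reads per 1000000) and 0.624 to 0.772 CPM. Foxp3, which defines Treg cells, had 138, 191 and 207 CPM in Treg, 13.8, 8.88 and 8.57 in Th0 and 82.7, 91.7 and 88.8 in naive libraries, so the naive libraries were not free of it. The summed level of 5 red-cell markers was 0 to 4.51 CPM in Treg, 4.90 to 5.55 in Th0 and 496 to 1172 in naive libraries, and that of 8 myeloid markers was 1.29 to 3.23, 0 to 2.12 and 17.5 to 91.7 CPM in the same order. Among those markers Alas2, Hba-a2, Hbb-bt, Lyz2, Csf1r, Cd14, S100a8 and S100a9 were at 0 in all Treg and all Th0 libraries. The summed level of 8 T cell markers was 2527 to 2845 CPM in Treg, 2456 to 2519 in Th0 and 3045 to 3121 in naive libraries. All 8 proliferation markers were higher in both cultures than in naive cells, with a summed level of 5028 to 5509 CPM in Treg, 5101 to 5152 in Th0 and 269 to 364 in naive libraries. The part of these other cells and of cell division in the changes against naive cells was not tested.

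Cultured T cells expressed the synthesis pathway at a far higher level than naive cells, and Treg and Th0 cells did so alike in direction. Of the 32 members, 22 were higher and 7 lower in Treg than in naive cells by limma on log2(CPM + 1) at an adjusted p under 0.05. Over all 14165 genes tested, 23.3% were higher and 16.5% lower in Treg than in naive cells (39.9% in either direction). Th0 cells had 22 members higher and 6 lower than naive cells, against 24.3% and 17.6% of all genes (41.9% in either direction). The members called in both were 21 that rose and 6 that fell. Both comparisons use the same naive libraries. Insig1 and Npc2 passed against naive cells in Treg alone, Srebf1 in Th0 alone, and Insig2 and Scap in neither, differences that are taken up in the direct test of Treg against Th0. The median change over the 32 members was 1.79 in Treg and 1.86 in Th0, and over all genes tested it was 0.08 in each. Fewer cells of a type and less RNA per cell cannot be told apart in such bulk libraries.

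**Figure D1:**
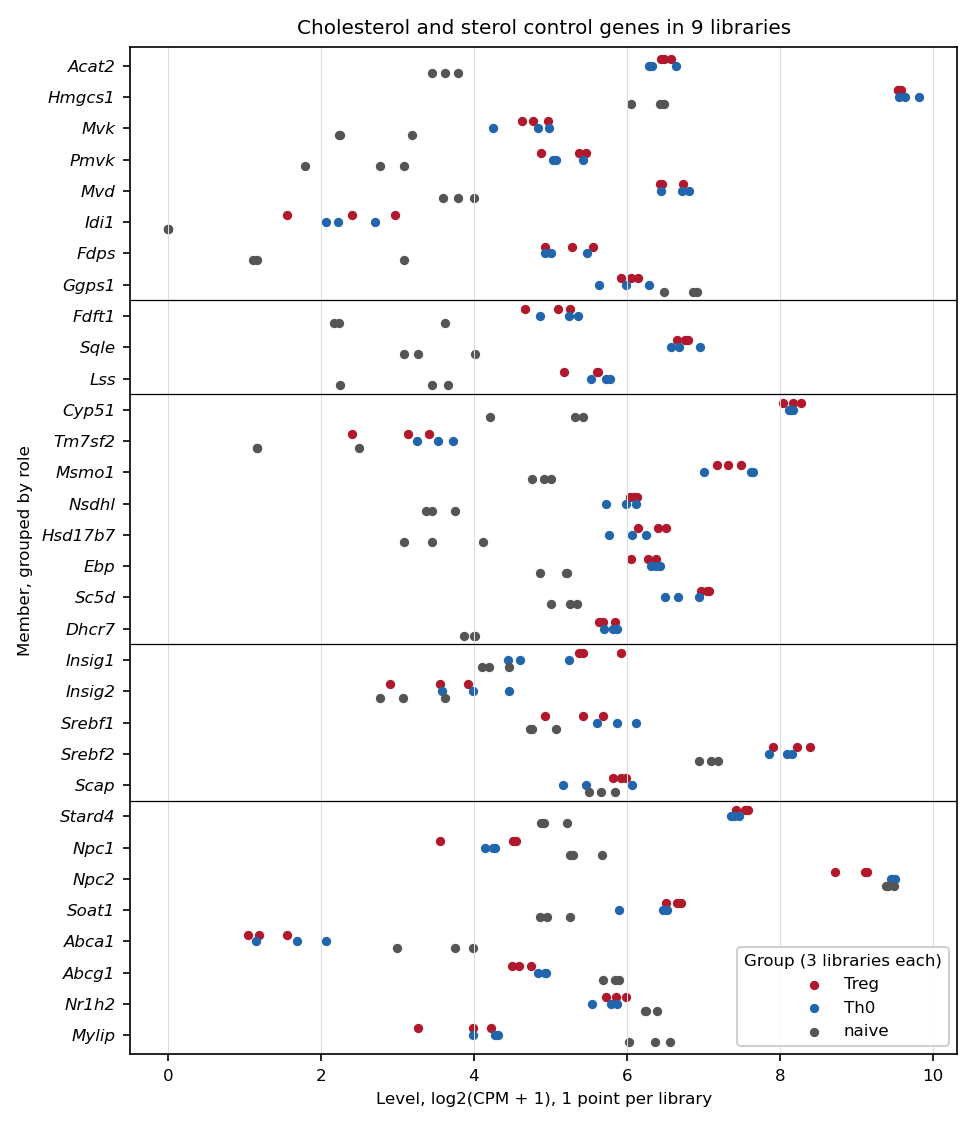
Level of each of the 32 members as log2(CPM + 1) on the x axis, 1 point per library, for Treg, Th0 and naive cells (3 libraries each); horizontal lines part the roles in the order isoprenoid steps, squalene and lanosterol, lanosterol to cholesterol, sensing, transport and LXR. The Treg and Th0 points of the enzymes lie to the right of the naive points except for Ggps1 and 1 Treg library of Tm7sf2, and the Abca1, Abcg1, Npc1, Nr1h2 and Mylip points lie to the left of them.

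The 19 enzymes made up 2067 to 2217 CPM in Treg, 2035 to 2377 in Th0 and 408 to 441 in naive libraries when summed. Of these enzymes, 18 rose and 1 fell against naive cells in Treg, with a median log2 change of 2.44, and the same was true of Th0, with a median of 2.48. In the first 8 steps, which lead to the isoprenoids, 7 genes rose and Ggps1 fell. Acat2, the cytosolic thiolase that joins acetyl-CoA units, had 88.3, 94.7 and 86.2 CPM in Treg, 79.5, 98.8 and 77.2 in Th0 and 11.3, 9.91 and 12.9 in naive libraries. Hmgcs1, the synthase of HMG-CoA (chr13:119690351-119708260), had 748, 744 and 767 CPM in Treg, 906, 792 and 749.6 in Th0 and 85.3, 65.7 and 88.8 in naive libraries. In both genes every cultured library lay several-fold above every naive one. Hmgcs1 was 9.43 times the naive mean in Treg (log2 change 3.23, SE 0.11, limma adjusted p = 2.22e-14) and 10.2 times in Th0 (3.34, SE 0.11, adjusted p = 1.35e-14). Acat2 changed by 2.88 in Treg (limma adjusted p = 1.28e-10) and 2.80 in Th0 (adjusted p = 1.82e-10).

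The kinases and the decarboxylase of mevalonate followed. Mvk, mevalonate kinase, had 23.7, 30.3 and 26.4 CPM in Treg, 18.0, 27.7 and 30.6 in Th0 and 3.76, 3.72 and 8.18 in naive libraries (log2 change 2.23, SE 0.34, limma adjusted p = 2.44e-05 in Treg). Pmvk, the kinase of phosphomevalonate, had 43.1, 40.6 and 28.4 CPM in Treg, 32.8, 42.2 and 31.8 in Th0 and 7.52, 2.48 and 5.84 in naive libraries. Mvd, the decarboxylase that yields isopentenyl diphosphate, had 87.2, 105 and 85.2 CPM in Treg, 111, 86.6 and 104 in Th0 and 15.0, 11.2 and 12.9 in naive libraries. No cultured library of Mvk, Pmvk or Mvd overlapped with a naive one. The change was 2.68 for Pmvk and 2.74 for Mvd in Treg (limma adjusted p = 1.64e-06 and 2.57e-10). Fdps, which makes farnesyl diphosphate, had 46.3, 38.0 and 29.4 CPM in Treg, 43.4, 31.1 and 29.4 in Th0 and 7.52, 1.24 and 1.17 in naive libraries, with the 1st naive library well above the other two. Its change of 3.47 in Treg (SE 0.43, limma adjusted p = 1.97e-06) rests on 8 naive reads in all, and was 4.12 without naive replicate 1 and 2.43 with a pseudocount of 5. Scaled for depth, the 132 Treg reads stood at 11.6 times the naive reads, with an exact 95% interval of 5.72 to 27.4 that covers counting error only. Idi1, the isomerase of isopentenyl diphosphate, was listed at 0 in all 3 naive libraries and had 4.31, 1.93 and 6.86 CPM in Treg and 3.18, 5.55 and 3.67 in Th0 libraries. Taking 3 reads in the shallowest naive library as the floor (3.76 CPM), the Treg mean of Idi1 was at least 1.16-fold higher. For the Th0 mean the bound was 1.10-fold. Processed copies of some of these genes exist in the genome, and how reads shared with such a copy were counted is not given in the sources used here.

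Ggps1, which makes geranylgeranyl diphosphate for protein prenylation off the route to sterol, went the other way from the rest of the enzymes. It had 65.7, 69.6 and 59.8 CPM in Treg, 77.3, 48.8 and 62.5 in Th0 and 89.0, 115 and 120.4 in naive libraries. All cultured libraries lay below all naive ones, and the change was -0.72 in Treg (SE 0.17, limma adjusted p = 0.00222) and -0.79 in Th0 (adjusted p = 0.000968).

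All 3 genes between farnesyl diphosphate and lanosterol rose in both cultures. Fdft1, squalene synthase, had 33.4, 37.4 and 24.5 CPM in Treg, 37.1, 39.9 and 28.2 in Th0 and 11.3, 3.72 and 3.51 in naive libraries. Lss, lanosterol synthase, had 48.5, 47.7 and 35.3 CPM in Treg, 54.0, 52.2 and 45.3 in Th0 and 3.76, 9.91 and 11.7 in naive libraries. Neither overlapped with naive cells, and the change was 2.34 for Fdft1 and 2.35 for Lss in Treg (limma adjusted p = 2.38e-05 and 3.82e-06), with 2.48 and 2.56 in Th0. Sqle, the squalene epoxidase and a control point of the pathway, had 111, 108 and 99.9 CPM in Treg, 123, 102 and 94.3 in Th0 and 7.52, 8.67 and 15.2 in naive libraries. The cultured libraries of Sqle stood close together and about an order of magnitude above the naive ones. Its mean was 10.1 times the naive mean in Treg (log2 change 3.28, SE 0.21, limma adjusted p = 2.58e-10) and 10.2 times in Th0 (3.28, SE 0.21, adjusted p = 2.33e-10).

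From lanosterol to cholesterol, 8 of 8 genes rose in both cultures, by 1.14 to 3.18 in Treg and by 1.28 to 3.16 in Th0. Cyp51, the lanosterol demethylase (chr5:4080674-4104697), had 310.1, 287 and 262 CPM in Treg, 288, 283 and 278 in Th0 and 38.9, 42.1 and 17.5 in naive libraries. The 3rd naive library was the lowest of all 9, and the change was 3.18 in Treg (SE 0.21, limma adjusted p = 4.18e-10). Msmo1, the oxidase that starts the removal of the remaining pair of methyl groups, had 159, 179 and 144 CPM in Treg, 197, 199.7 and 127 in Th0 and 31.3, 26.0 and 29.2 in naive libraries. Nsdhl, the decarboxylase of that removal, had 68.9, 67.0 and 64.6 CPM in Treg, 62.5, 52.2 and 68.6 in Th0 and 12.5, 9.91 and 9.35 in naive libraries. Hsd17b7, the keto-reductase of the same complex, had 70.0, 90.2 and 84.2 CPM in Treg, 75.2, 53.3 and 66.1 in Th0 and 7.52, 9.91 and 16.4 in naive libraries. None of Msmo1, Nsdhl and Hsd17b7 had a cultured library within the naive range, with changes in Treg of 2.44, 2.56 and 2.81 (limma adjusted p of at most 1.31e-08). Ebp, the sterol isomerase, had 65.7, 76.7 and 82.3 CPM in Treg, 85.8, 78.8 and 82.1 in Th0 and 36.4, 35.9 and 28.1 in naive libraries (log2 change 1.14, SE 0.16, limma adjusted p = 1.02e-05 in Treg and 1.28, SE 0.16, adjusted p = 2.28e-06 in Th0). Sc5d, the desaturase, changed by 1.82 in Treg (limma adjusted p = 7.36e-09) and 1.50 in Th0 (adjusted p = 1.06e-07), where naive libraries had 31.3, 37.2 and 39.7 CPM. Dhcr7, the reductase of 7-dehydrocholesterol, had 50.6, 56.7 and 49.0 CPM in Treg, 50.9, 55.5 and 57.6 in Th0 and 15.0, 13.6 and 15.2 in naive libraries (log2 change 1.76, SE 0.19, limma adjusted p = 2.99e-07 in Treg). In Ebp, Sc5d and Dhcr7 no cultured library reached down to the naive range. Tm7sf2, a sterol reductase, had 4.31, 9.67 and 7.84 CPM in Treg, 10.6, 12.2 and 8.57 in Th0 and 1.25, 1.24 and 4.68 in naive libraries, and its Treg and naive libraries overlapped. Its call in Treg (log2 change 1.38, SE 0.49, limma adjusted p = 0.03) did not stand when any of 4 single libraries was left out, with an adjusted p of 0.124 without replicate 2 of Treg, 0.0827 without replicate 3 of Treg, 0.0866 without replicate 1 of naive and 0.0885 without replicate 2 of naive. Quantile scaling (0.0518) and DESeq2 (0.15) lost it as well, while its call in Th0 (1.89, SE 0.49, adjusted p = 0.00381) stood under all 19 alternatives.

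**Figure D2:**
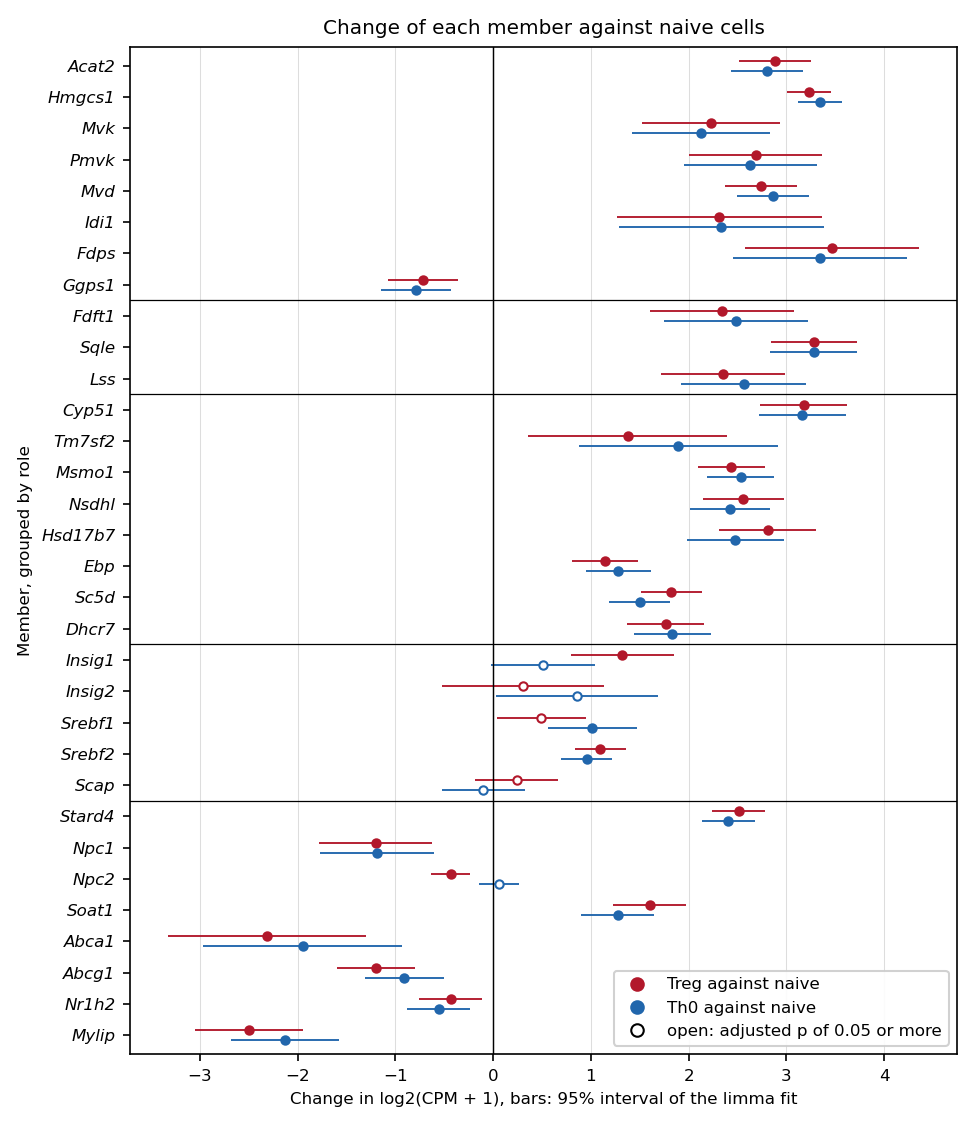
Change of each member in log2(CPM + 1) on the x axis, with the 95% interval of the limma fit as bars, for Treg against naive and Th0 against naive cells; open points did not pass an adjusted p of 0.05. The enzymes lie between 1.14 and 3.47 in Treg except Ggps1 at -0.72, and 5 transport and LXR genes lie below 0 in both cultures.

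Of the 5 sensing genes, 2 rose in Treg (Insig1 and Srebf2) and 2 in Th0 (Srebf1 and Srebf2), where 23.3% and 24.3% of all genes were higher, and the median change of the 5 was 0.49 in Treg and 0.86 in Th0. Srebf2, which encodes the SREBP-2 that acts on the synthesis enzymes (chr15:82147269-82205379), had 299, 335 and 240.0 CPM in Treg, 273, 232 and 284 in Th0 and 145, 123 and 137 in naive libraries. Every cultured library was above every naive one, and the change was 1.10 in Treg (SE 0.12, limma adjusted p = 6.9e-07) and 0.96 in Th0 (adjusted p = 3.67e-06). Scap, the escort of SREBP, had 62.5, 55.4 and 59.8 CPM in Treg, 35.0, 43.3 and 66.1 in Th0 and 56.4, 49.6 and 44.4 in naive libraries, and its groups overlapped (change in Treg 0.24, 95% interval -0.18 to 0.66, limma adjusted p = 0.377). Insig2, the other retention protein, had 6.46, 14.2 and 10.8 CPM in Treg, 14.8, 21.1 and 11.0 in Th0 and 11.3, 7.43 and 5.84 in naive libraries. It changed by 0.30 in Treg (95% interval -0.52 to 1.13) and 0.86 in Th0 (95% interval 0.03 to 1.68, limma adjusted p = 0.091) and its groups overlapped.

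Of the 8 transport, storage and LXR genes, 2 rose and 6 fell in Treg, and 2 rose and 5 fell in Th0. Over all genes, 23.3% were higher and 16.5% lower in Treg, and 24.3% and 17.6% in Th0, so the count of rises was near the share of all genes. The 2 members that rose were Stard4 and Soat1. Stard4, which shuttles sterol through the cytosol, had 192, 186 and 171 CPM in Treg, 176, 168 and 164 in Th0 and 36.4, 28.5 and 29.2 in naive libraries. Soat1, the enzyme that esterifies cholesterol for storage, had 100.1, 103 and 90.1 CPM in Treg, 87.9, 91.0 and 58.8 in Th0 and 30.1, 37.2 and 28.1 in naive libraries. Cultured and naive libraries did not overlap in either gene (log2 change 2.51, SE 0.13, limma adjusted p = 9.83e-12 for Stard4 in Treg and 1.60, SE 0.18, adjusted p = 5.75e-07 for Soat1). Those that fell in both cultures were Abca1, Abcg1, Mylip, Nr1h2 and Npc1, with Npc2 lower in Treg. Abca1, the exporter of cholesterol to lipid-poor apolipoproteins and a textbook LXR target, had 1.08, 1.29 and 1.96 CPM in Treg, 3.18, 2.22 and 1.22 in Th0 and 12.5, 14.9 and 7.01 in naive libraries. Those Treg values are 5 reads and the naive values 28, a depth-scaled ratio of 0.125 with an exact 95% interval of 0.0378 to 0.329, and for the 6 Th0 reads the ratio was 0.198 (0.0671 to 0.488). Abcg1, the exporter to lipoprotein particles and also an LXR target, had 25.8, 23.2 and 21.5 CPM in Treg, 29.7, 27.7 and 29.4 in Th0 and 56.4, 50.8 and 58.4 in naive libraries. All its cultured libraries lay below the naive ones (log2 change -1.20, SE 0.19, limma adjusted p = 4.62e-05 in Treg and -0.91, SE 0.19, adjusted p = 0.000743 in Th0).

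Mylip, which LXR induces and whose product, a ubiquitin ligase, lowers lipoprotein uptake (chr13:45389742-45411940), had 8.61, 14.8 and 17.6 CPM in Treg, 14.8, 18.9 and 18.4 in Th0 and 94.0, 81.8 and 64.3 in naive libraries. It fell without overlap (log2 change -2.50, SE 0.26, limma adjusted p = 2.73e-07 in Treg and -2.13, SE 0.26, adjusted p = 2e-06 in Th0). Which of Mylip and Abca1 fell more depends on the pseudocount: Mylip was at 0.171 and Abca1 at 0.126 times the naive mean in Treg, where the log2 change of Abca1 with a pseudocount of 1 was -2.31. Nr1h2, the LXR-beta gene itself, had 57.1, 62.5 and 51.9 CPM in Treg, 45.6, 54.4 and 57.6 in Th0 and 75.2, 74.3 and 83.0 in naive libraries. Its fall was smaller (log2 change -0.44, SE 0.15, limma adjusted p = 0.0301 in Treg and -0.56, SE 0.15, adjusted p = 0.00634 in Th0). The Treg call of Nr1h2 did not stand without the trend (adjusted p = 0.0614) or when replicate 1 (0.0641) or 3 (0.106) of Treg or replicate 1 (0.0515) or 3 (0.0988) of naive was left out. Npc1, the membrane protein that passes lipoprotein cholesterol out of the lysosome, had 10.8, 21.9 and 22.5 CPM in Treg, 18.0, 16.6 and 18.4 in Th0 and 50.1, 38.4 and 37.4 in naive libraries. It was lower in both cultures, without overlap (log2 change -1.20, SE 0.28, limma adjusted p = 0.00172 in Treg and -1.19, SE 0.28, adjusted p = 0.00179 in Th0). Abca1, Abcg1 and Mylip are also expressed in macrophages, and the myeloid markers given above moved with their fall, a part that was not tested.

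**Figure D3:**
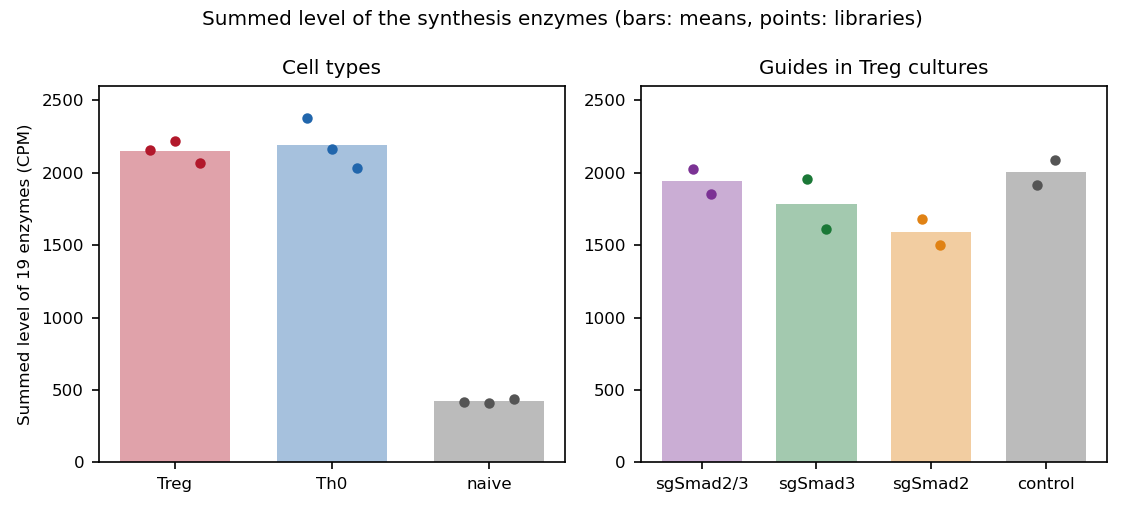
Summed level of the 19 enzymes in CPM on the y axis, for Treg, Th0 and naive cells (3 libraries each, left) and for the sgSmad2/3, sgSmad3, sgSmad2 and control Treg cultures (2 libraries each, right); bars are means and points are libraries. Treg (2067 to 2217) and Th0 (2035 to 2377) overlap far above naive (408 to 441), and the sgSmad2 libraries (1504 and 1678) lie below both control libraries (1919 and 2091).

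Set directly against each other, Treg and Th0 cells differed in 1 of the 32 members, against 5.44% of all genes tested, 2.99% higher and 2.45% lower in Treg. That member was Npc2, the soluble lysosomal partner of Npc1, which binds cholesterol in the lumen (chr12:84754559-84773112). Npc2 had 553, 565 and 421 CPM in Treg, 725, 722 and 702 in Th0 and 681, 717 and 669 in naive libraries. The Treg libraries were below all Th0 and all naive ones, and Th0 and naive overlapped. The change in Treg against Th0 was -0.49 (SE 0.10, limma adjusted p = 0.00316, Treg at 0.716 times the Th0 mean). It was called by edgeR and DESeq2 as well and lost only without the trend (adjusted p = 0.18), where no member passed. Against naive cells Npc2 changed by -0.44 in Treg (adjusted p = 0.00127) and by 0.06 in Th0 (adjusted p = 0.677).

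No enzyme of synthesis passed between Treg and Th0 by limma, and edgeR and DESeq2 on the recovered reads called none either. At an unadjusted limma p under 0.05 there was 1 of 19, against 2225 of the 14165 genes tested. The median change of the 19 was 0.00, and the 95% interval stayed within 0.5 of 0 for Hmgcs1 (-0.34 to 0.12), Acat2 (-0.29 to 0.45), Mvd (-0.49 to 0.25), Sqle (-0.44 to 0.45) and Cyp51 (-0.43 to 0.46). The interval was wider for Idi1 (-1.07 to 1.03), Fdps (-0.77 to 1.02) and Tm7sf2 (-1.53 to 0.50). Idi1 and Tm7sf2 have few reads throughout, and Fdps has few in the naive libraries, which share the fit. It also passed 0.5 for Mvk (-0.61 to 0.80), Pmvk (-0.62 to 0.74), Fdft1 (-0.88 to 0.59) and Lss (-0.85 to 0.43). The same held for Hsd17b7 (-0.17 to 0.83), Sc5d (0.02 to 0.64) and Nsdhl (-0.28 to 0.55). A difference within such an interval was not detectable at this depth. Sc5d was the enzyme with the lowest p, with 131, 133 and 124 CPM in Treg and 122, 101 and 89.4 in Th0 libraries (log2 change 0.33, SE 0.15, limma adjusted p = 0.287), and its libraries did not overlap. Groups that did not overlap were found for 4 of the 32 members and for 21.2% of all genes. The other 3 were Npc2, Abcg1 (-0.29, adjusted p = 0.532) and Insig1.

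Insig1, the SREBP-induced retention protein (chr5:28071412-28078662), came nearest to a difference after Npc2. It had 42.0, 40.6 and 59.8 CPM in Treg, 37.1, 23.3 and 20.8 in Th0 and 16.3, 17.3 and 21.0 in naive libraries. Th0 replicate 1 was close to the Treg libraries, and the other two Th0 libraries were in or next to the naive range. The change in Treg against Th0 was 0.81 (SE 0.25, limma adjusted p = 0.0712), with Treg at 1.75 times the Th0 mean. It passed by edgeR (0.79, adjusted p = 0.0144), without Th0 replicate 1 (1.05, 0.0274), without naive replicate 1 (0.81, 0.0438) and without naive replicate 2 (0.81, 0.0498), and did not by DESeq2 (0.80, 0.175). Each of those 4 settings gave 2 members in place of 1. Srebf1, which encodes SREBP-1, ran the other way, with 50.6, 41.9 and 29.4 CPM in Treg, 68.9, 47.7 and 57.6 in Th0 and 32.6, 26.0 and 25.7 in naive libraries (Treg against Th0 log2 change -0.52, SE 0.22, limma adjusted p = 0.226). Treg replicate 1 overlapped with the Th0 range, and the other two Treg libraries were below it.

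**Figure D4:**
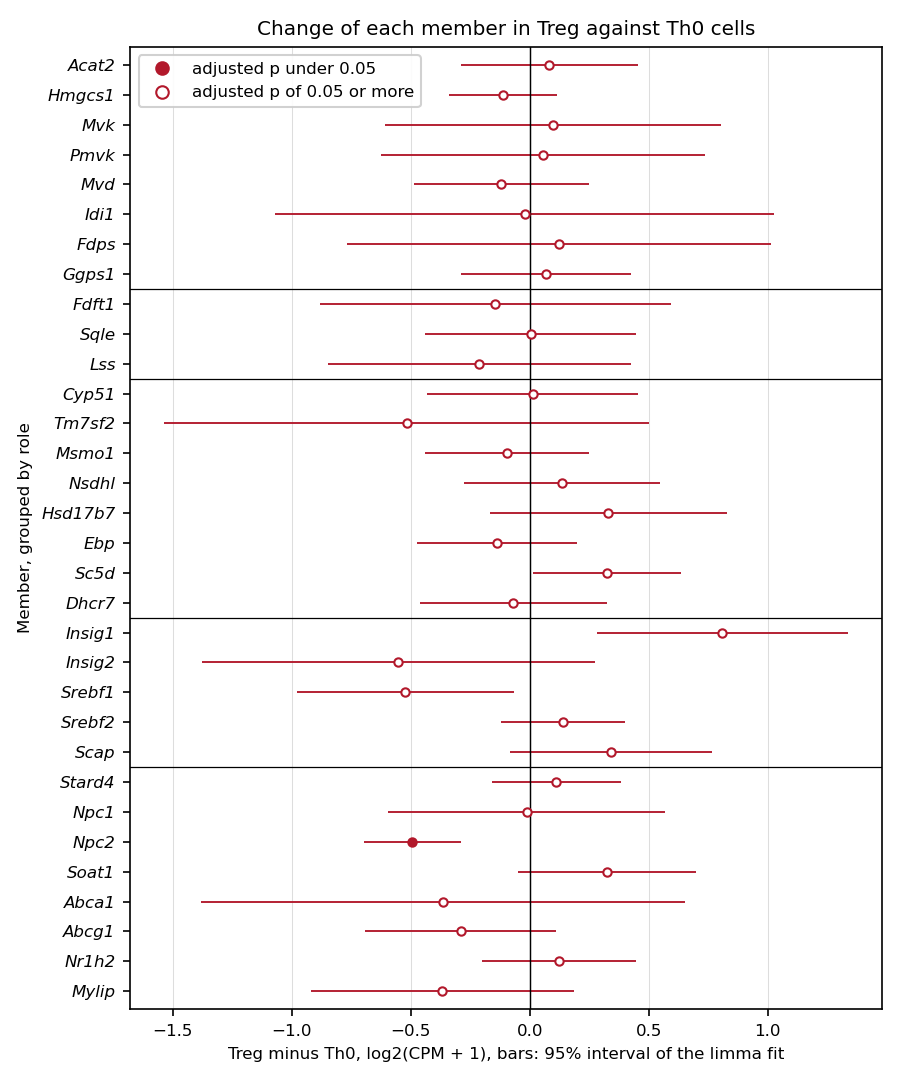
Treg minus Th0 change of each member in log2(CPM + 1) on the x axis, with the 95% interval of the limma fit as bars; the filled point passed an adjusted p of 0.05. Npc2 at -0.49 is the only filled point, Insig1 lies at 0.81, and the enzymes lie on both sides of 0 between -0.52 and 0.33.

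In the guide experiment the targeted transcripts were looked at first. Smad2 had 13 and 18 CPM in sgSmad2/3, 25 and 30 in sgSmad3, 12 and 24 in sgSmad2 and 37 and 29 in control libraries, lower in all 4 libraries with a Smad2 guide than in the 4 without (log2 change -0.85, SE 0.25, limma adjusted p = 0.496). Smad3 had 41 and 37 CPM in sgSmad2/3, 26 and 25 in sgSmad3, 44 and 56 in sgSmad2 and 30 and 34 in control libraries. The sgSmad3 libraries were below the control ones and the sgSmad2/3 libraries above them, so the libraries labelled sgSmad2/3 do not show a low Smad3 tag level. A frameshift need not lower a tag at the 3′ end, and the place of the guides is not given in the sources used here, so these levels check neither the labels nor the editing. Groups below are therefore named as labelled.

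No member passed in any guide comparison. The same holds for all 18347 genes tested (0% called by limma in sgSmad2, sgSmad3 and sgSmad2/3 against control, in libraries with and without a Smad3 or a Smad2 guide, and in the departure of the double guide from additive single guides). At an unadjusted p under 0.05 there were 2 members in sgSmad2, 5 in sgSmad3 and 1 in sgSmad2/3, against 1006, 1842 and 1795 of all genes, and 3, 0 and 5 members in the with and without comparisons for Smad3 and Smad2 and in the departure, against 2355, 1268 and 1051. The values are rounded to whole CPM, and ties among the lowest genes can weaken this test. On simulated counts it recovered 44% of 4-fold changes in sgSmad2 against control with 164 false calls. The spread of the simulated counts was a fixed setting, not estimated from these libraries, so no recovery rate here is the power of this experiment. With a minimum of 5 CPM, chosen after seeing the data, the test recovered 100% of the simulated 4-fold and 21% of the 2-fold changes with 5 false calls. On the real values that minimum called 1 gene in sgSmad2 (0.00931%), 10 in sgSmad3 (0.0931%), 56 in sgSmad2/3 (0.522%) and 100 in the libraries with a Smad3 guide (0.931%), and none of the 31 members tested. A count test could not be run on rounded values.

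The members with the lowest p are given with their values. In sgSmad2 these were Hmgcs1 and Msmo1. Hmgcs1 had 672 and 614 CPM in sgSmad2/3, 553 and 497 in sgSmad3, 537 and 453 in sgSmad2 and 673 and 706 in control libraries. Both single guides gave levels below both control libraries, and sgSmad2/3 came close to the control. The change was -0.48 in sgSmad2 (SE 0.12, limma adjusted p = 0.51), -0.39 in sgSmad3 (adjusted p = 0.427) and -0.10 in sgSmad2/3 (adjusted p = 0.755). With the 5 CPM minimum the adjusted p of Hmgcs1 was 1 in sgSmad2 and 0.38 in sgSmad3. The departure of Hmgcs1 from additivity in sgSmad2/3 was 0.77 (SE 0.17, adjusted p = 0.312). Msmo1 had 136 and 134 CPM in sgSmad2/3, 160 and 115 in sgSmad3, 107 and 105 in sgSmad2 and 134 and 167 in control libraries, with sgSmad2 below all other libraries (log2 change -0.49, SE 0.18, limma adjusted p = 0.854). Tm7sf2 was second in the departure (log2 change 1.50, SE 0.46, limma adjusted p = 0.592), with 15 and 13 CPM in sgSmad2/3, 4 and 8 in sgSmad3, 6 and 7 in sgSmad2 and 8 and 9 in control libraries.

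Of all members, 13 did not overlap between sgSmad2 and control (1 higher and 12 lower, against 19% of all genes), 7 between sgSmad3 and control (28.2%) and 13 between sgSmad2/3 and control (8 higher and 5 lower, against 29.8%). Across the enzymes, 10 of 19 were lower in both sgSmad2 libraries than in both control libraries and none was higher. Over all genes 8.7% were lower and 10.3% higher in this way. Low genes tied at whole CPM count as overlapping in these shares, and no share was counted for genes at the enzymes' levels. The 10 were Acat2, Hmgcs1, Mvk and Mvd of the early steps, Fdft1 and Lss, and Cyp51, Tm7sf2, Msmo1 and Sc5d of the late steps. Of those not yet described, Acat2 had 90 and 86 CPM in sgSmad2/3, 71 and 67 in sgSmad3, 63 and 66 in sgSmad2 and 68 and 87 in control libraries, and Cyp51 had 304 and 267 CPM in sgSmad2/3, 291 and 241 in sgSmad3, 264 and 204 in sgSmad2 and 268 and 311 in control libraries. Mvk had 35 and 25 CPM in sgSmad2/3, 39 and 24 in sgSmad3, 16 and 22 in sgSmad2 and 27 and 27 in control libraries, and Mvd had 93 and 94 CPM in sgSmad2/3, 117 and 66 in sgSmad3, 55 and 72 in sgSmad2 and 87 and 92 in control libraries. Fdft1 had 39 and 30 CPM in sgSmad2/3, 28 and 26 in sgSmad3, 22 and 25 in sgSmad2 and 29 and 40 in control libraries, and Lss had 36 and 33 CPM in sgSmad2/3, 49 and 32 in sgSmad3, 41 and 31 in sgSmad2 and 45 and 53 in control libraries. In each of these 6 genes both sgSmad2 libraries lay below both control ones, with changes of -0.25 for Acat2, -0.31 for Cyp51, -0.50 for Mvk, -0.50 for Mvd, -0.52 for Fdft1 and -0.44 for Lss on the log2 scale (limma adjusted p of at least 0.92 in each). Sqle, with 85 and 87 CPM in sgSmad2/3, 89 and 88 in sgSmad3, 81 and 66 in sgSmad2 and 88 and 74 in control libraries, was not among the 10. The median change of the 19 was -0.30 in sgSmad2, -0.08 in sgSmad3 and 0.08 in sgSmad2/3, against 0 over all genes in each. Their sum was 1857 to 2024 CPM in sgSmad2/3, 1609 to 1957 in sgSmad3, 1504 to 1678 in sgSmad2 and 1919 to 2091 in control libraries. All 3 guide groups share the control libraries. Same-numbered sgSmad2 and control libraries resembled each other: their deviations from the group means correlated at 0.215 over genes, and 16641 and 16547 genes were above 0 in their 1st libraries against 14798 and 14793 in their 2nd. Any part of this in the enzyme counts was not tested beyond a replicate block, under which no member passed. In sgSmad3, 3 of the 19 were lower and 1 higher than both controls (12.9% and 15.3% of all genes), and in sgSmad2/3, 3 were lower and 4 higher (13.7% and 16.1%).

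Soat1 had the lowest p of the members in sgSmad3 and in sgSmad2/3 with the minimum of 1 CPM, but not with that of 5 CPM, where the lowest were Srebf2 and Lss. It had 116 and 113 CPM in sgSmad2/3, 114 and 115 in sgSmad3, 130 and 132 in sgSmad2 and 138 and 140 in control libraries. The 4 libraries with a Smad3 guide lay at 113 to 116 CPM, below the sgSmad2 libraries, which lay below the control ones, and replicates differed by 3 CPM at most. The change was -0.28 in sgSmad3 (SE 0.07, limma adjusted p = 0.369), -0.28 in sgSmad2/3 (adjusted p = 0.345) and -0.24 in libraries with a Smad3 guide against those without (SE 0.05, adjusted p = 0.176). With the 5 CPM minimum the SE of Soat1 was larger, and the adjusted p was 0.543 in sgSmad3, 0.571 in sgSmad2/3 and 0.355 for libraries with a Smad3 guide. Sc5d, second in sgSmad2/3, had 121 and 116 CPM in sgSmad2/3, 123 and 93 in sgSmad3, 120 and 120 in sgSmad2 and 144 and 151 in control libraries. Every guide library of Sc5d was below both controls (log2 change -0.31, SE 0.14, limma adjusted p = 0.584 in sgSmad2/3 and -0.46, SE 0.14, adjusted p = 0.429 in sgSmad3).

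Srebf2 and Hsd17b7 were higher in all 4 libraries with a Smad3 guide than in all 4 without. The nearest libraries stood at 324 and 309 CPM for Srebf2 and at 61 and 57 CPM for Hsd17b7. The share of all genes that part in this way, as Soat1 does in the other direction, was not counted. Srebf2 had 352 and 324 CPM in sgSmad2/3, 406 and 375 in sgSmad3, 201 and 309 in sgSmad2 and 252 and 287 in control libraries (log2 change 0.49, SE 0.15, limma adjusted p = 0.281 for libraries with a Smad3 guide against those without). Hsd17b7 had 76 and 61 CPM in sgSmad2/3, 89 and 63 in sgSmad3, 57 and 46 in sgSmad2 and 48 and 54 in control libraries (log2 change 0.48, SE 0.15, limma adjusted p = 0.284). With the 5 CPM minimum the adjusted p was 0.0991 for Srebf2 and 0.166 for Hsd17b7 in the same comparison. Markers of some other cells differed between the same libraries. The red-cell markers summed to 70 to 144 CPM in sgSmad2/3, 32 to 87 in sgSmad3, 24 to 25 in sgSmad2 and 13 to 19 in control libraries, and the myeloid markers to 20 to 71, 8 to 54, 3 to 8 and 0 to 3 CPM in the same order, with Itgam, Cd14 and Alas2 at 0 in all 8 libraries. The proliferation markers summed to 4975 to 5040 CPM in sgSmad2/3 and 4923 to 5337 in sgSmad3, against 4005 to 4614 in sgSmad2 and 4195 to 4360 in control libraries. The part of these in the levels of Srebf2 and Hsd17b7 was not tested.

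For the Smad2 guide the lowest p of a member was that of Srebf1, with 65 and 60 CPM in sgSmad2/3, 44 and 52 in sgSmad3, 54 and 68 in sgSmad2 and 57 and 60 in control libraries (log2 change 0.21, SE 0.11, limma adjusted p = 0.823 for libraries with a Smad2 guide against those without). The groups overlapped. Insig1 had 63 and 56 CPM in sgSmad2/3, 145 and 49 in sgSmad3, 65 and 64 in sgSmad2 and 63 and 53 in control libraries, and the sgSmad3 libraries stood far apart, so that its change in sgSmad3 of 0.54 (adjusted p = 0.686) turned to -0.23 without sgSmad3 replicate 1. Npc2, the member that separated Treg from Th0 cells, had 529 and 564 CPM in sgSmad2/3, 569 and 514 in sgSmad3, 330 and 505 in sgSmad2 and 361 and 518 in control libraries (log2 change 0.37, SE 0.18, limma adjusted p = 0.479 for libraries with a Smad3 guide against those without). The 1st sgSmad2 and the 1st control library were the lowest, and the other 6 lay at 505 to 569 CPM. Stard4 had 188 and 175 CPM in sgSmad2/3, 147 and 178 in sgSmad3, 139 and 155 in sgSmad2 and 162 and 177 in control libraries. Abcg1 had 38 and 38 CPM in sgSmad2/3, 32 and 42 in sgSmad3, 44 and 52 in sgSmad2 and 31 and 44 in control libraries. Abca1 was at 1 to 3 CPM in all 8 libraries. Over the 3 guide groups, the members' changes against control ran from -0.52 to 0.67 on the log2 scale. Mylip had 27 and 19 CPM in sgSmad2/3, 9 and 15 in sgSmad3, 9 and 13 in sgSmad2 and 12 and 16 in control libraries, highest in the sgSmad2/3 libraries (log2 change 0.67, SE 0.34, limma adjusted p = 0.635).

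**Figure D5:**
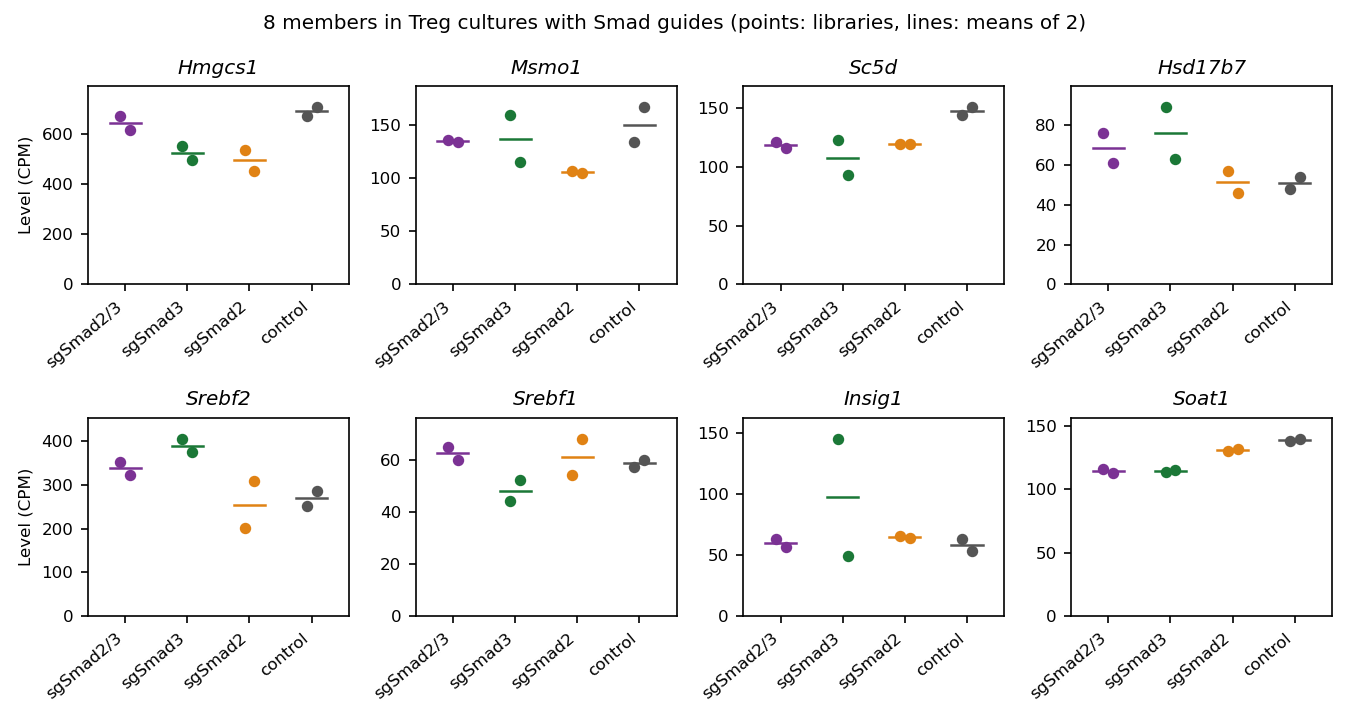
Level in CPM on the y axis of 8 members in Treg cultures labelled sgSmad2/3, sgSmad3, sgSmad2 and control; points are libraries and lines the means of 2. Soat1 is lowest in the groups with a Smad3 guide (113 to 116 against 130 to 140 CPM), Srebf2 is highest there (324 to 406 against 201 to 309 CPM), and 1 sgSmad3 library of Insig1 stands at 145 CPM.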

How the data were processed

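Expression was measured in 17 RNA libraries with the QuantSeq 3′ kit, per the labels' protocols. The build mm10 and the tools deepTools, Bowtie2, Subread (2.0.1) and STAR (2.7.9a) are listed, with no roles, in the submitters' processing notes. No source used here gives an annotation version or a strand setting, so reads of overlapping or antisense genes cannot be told apart. The cell-type values the authors deposited are CPM: columns sum to 1000000 and 100% of values are whole multiples of 1 read within 0.01 of a read. The guide values the authors deposited are a score, CPM rounded to whole numbers, and an unnamed last line of that file gives the worth of 1 read, from which depth was taken. Both had been planned for as TPM. The Acsbg1 RNA and ATAC libraries were not analysed here.

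Genes at 1 CPM or more in at least 3 (cell types) or 2 (guides) libraries were tested: 14165 and 18347. limma 3.58.1 in R 4.3.3 was fitted with a trend to log2(CPM + 1), all groups of an experiment in 1 fit, with Benjamini-Hochberg adjustment over all genes tested and a threshold of 0.05. Fold changes on this scale understate the change of low genes. Because whole reads could be recovered for the cell types, edgeR 4.0.16 (quasi-likelihood, TMM) and DESeq2 1.42.0 served as alternatives, beside other pseudocounts, filters, scalings, no trend, a replicate block and leaving out each library. The edgeR test called 1066 genes in Treg against Th0, where limma called 770. On simulated counts for Treg against naive, limma recovered 95% of 100 4-fold and 29% of 100 2-fold changes, with 4 false calls among 14477 genes. The simulated spread was a fixed setting for every gene, not estimated from these libraries, so these rates are not the power of the test on the real values.

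The members and the lists were chosen with earlier results of these data known. Values in every library are given for members called in Treg against Th0 or a guide comparison, for the 12 with the largest change in Treg against naive cells, for those that fell in a culture, and for the 2 with the lowest p where a guide comparison called none. Others, such as Insig1, Srebf1, Srebf2, Hsd17b7, Idi1 and Tm7sf2, were added where a statement turns on them. Gene positions and promoters are RefSeq's on GRCm38.p6. All replicate pairs of the cell types differed by more than sampling noise. Floors of 3 reads and exact intervals cover counting error only, since the reads carry no molecular identifiers.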

Additional observations from a re-analysis of the deposited data

How the results depend on the processing

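The members called numbered 27 to 29 in Treg against naive cells and 27 to 29 in Th0 against naive cells under every alternative, and 0 in each guide comparison. In Treg against Th0 the count of 1 was 0 without the trend and 2 by edgeR on whole reads, and 1 to 2 when a library was left out. Of the single members followed, 1309 of the repeats kept direction and side of the threshold, 13 lost a call, 4 gained one and 1 turned round: Insig1 in sgSmad3 at -0.23 without sgSmad3 replicate 1, with a range of -0.23 to 1.31 over the libraries left out. The losses concern Npc2, Nr1h2 and Tm7sf2, and the causes were not tested. With quantile scaling the median of all genes in Treg against naive cells was -0.04 in place of 0.08. The labels do not say that replicate numbers pair libraries. Deviations of same-numbered libraries correlated at -0.00287 to 0.0414 for the cell types and 0.00556 to 0.0374 for the guides, except sgSmad2 and control at 0.215, and a replicate block called 29, 28 and 1 members in the cell-type comparisons and 0 for the guides. With a minimum of 5 CPM, chosen after seeing the data, Idi1 was no longer tested among the cell types and Abca1 among the guides, and the counts were 28, 27 and 1. The 797612 to 1551478 reads per library limit members of few CPM, such as Idi1, Abca1, Tm7sf2 and naive Fdps. With 2 libraries a group, the guide comparisons could miss 2-fold changes. Over all genes, the 770 calls of Treg against Th0 were 453 without the trend and 503 without Treg replicate 2. In sgSmad2, sgSmad3 and sgSmad2/3 against control, where 0 genes were called, a pseudocount of 0.1 called 185, 178 and 178 and no trend 175, 158 and 164.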

Other observations

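Genes next to the pathway gave a mixed picture. Of 11 fatty acid genes that SREBP-1 is known to control, 10 passed the minimum level, and 8 rose in Treg and 9 in Th0 against naive cells, none fell, and none passed between Treg and Th0 (23.3%, 24.3% and 5.44% of all genes, the first 2 counted as higher). Their sum was 2191 to 2373 CPM in Treg, 2213 to 2410 in Th0 and 286 to 384 in naive libraries. Scd2, a desaturase that makes monounsaturated fatty acids, had 1117, 1064 and 955 CPM in Treg, 1079.6, 1116 and 998 in Th0 and 50.1, 34.7 and 33.9 in naive libraries (log2 change 4.71, SE 0.12, limma adjusted p = 5.24e-16 in Treg). Scd1, a related desaturase, had 151, 155 and 207 CPM in Treg, 80.5, 86.6 and 80.8 in Th0 and 6.27, 12.4 and 0 in naive libraries. Treg was above Th0 in every library of Scd1, at 2.07 times the mean, but did not pass (log2 change 1.03, SE 0.56, limma adjusted p = 0.41). Elovl6, which elongates saturated fatty acids, had 186, 204 and 206 CPM in Treg, 212, 172 and 165 in Th0 and 7.52, 4.96 and 5.84 in naive libraries (log2 change 4.83, SE 0.17, limma adjusted p = 3.13e-14 in Treg).

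Of 50 further genes of SREBP cleavage, isoprenoid use, sterol transport, LXR and oxysterols, 44 could be tested, and 10 rose and 9 fell in Treg against naive cells, with 9 and 7 in Th0. These counts are close to the shares of all genes, 23.3% higher and 16.5% lower in Treg and 24.3% and 17.6% in Th0. Tmem97, a membrane protein that binds Npc1, changed by 3.34 in Treg (limma adjusted p = 8.28e-07). Gpr183, the receptor through which oxysterols guide lymphocyte migration, had 20.5, 22.6 and 17.6 CPM in Treg, 20.1, 32.2 and 25.7 in Th0 and 207, 154 and 172 in naive libraries and fell (log2 change -3.07, SE 0.20, limma adjusted p = 2.58e-10 in Treg). Between Treg and Th0, 2 of the 44 genes passed, against 5.44% of all genes tested, and they moved in opposite directions. Both encode related carriers that bring sterol from the plasma membrane to the endoplasmic reticulum. Gramd1a had 85.1, 78.6 and 81.3 CPM in Treg, 61.4, 56.6 and 51.4 in Th0 and 212, 207 and 247 in naive libraries, with Treg above Th0 (log2 change 0.53, SE 0.13, limma adjusted p = 0.0152). Gramd1b had 86.1, 76.1 and 80.3 CPM in Treg, 130.3, 109 and 115 in Th0 and 128, 125 and 122 in naive libraries, with Treg below Th0 (log2 change -0.54, SE 0.12, limma adjusted p = 0.00966). In neither gene did the Treg and Th0 libraries overlap.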
